A study of Rattus norvegicus with 6 samples.

Results

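The semaphorin, ephrin, Slit and netrin guidance genes were followed in rat aortic smooth muscle cells under fluid flow. All probe sets were taken whose only annotated gene symbol named a semaphorin of classes 3 to 7, a plexin, a neuropilin, an ephrin, an Eph receptor, a Slit, a Robo, a netrin or began with Unc5. The search gave 97 probe sets of 58 genes, among 31042 probe sets and 14217 named genes on the array. There were 28 ligand genes and 28 receptor genes. The other 2 genes, Unc50 and Unc5cl, matched by name alone and do not encode netrin receptors. The study measured RNA on Affymetrix rat arrays in 3 sheared cultures and 3 static cultures that carried pairing numbers 1 to 3. Cells of both groups were used at passages 3 to 5 and spent 24 h in medium with 0.1% bovine serum albumin in place of 10% serum before the experiment. Sheared cells then lay for 24 h in a parallel-plate chamber under laminar flow at 14 dyn/cm2, and static cells were incubated without flow. The labels do not state what the members of a pair had in common, so the p-values describe the scatter among these 6 cultures, which could be technical.

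Guidance cues were first described as signals that attract or repel growing axons, and they also position vessels and vascular cells. Class 3 semaphorins are secreted and bind a neuropilin that signals through a plexin, most other semaphorins bind plexins directly, ephrins on one cell bind Eph receptors on its neighbour, Slits bind Robo receptors, and netrins bind DCC, neogenin or Unc5 receptors. Neuropilins also bind vascular endothelial growth factor, and in vascular smooth muscle these systems are known for effects on cell spreading, migration and contacts with the endothelium.

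Start-proximal sequence is shown for 5 of the genes that the results turn on, 3 that fell (Nrp1, Plxnb2 and Ephb4) and 2 that rose (Efnb1 and Unc5b). Each run holds the 250 bases before the annotated gene start, read 5′ to 3′ in the direction of transcription, from RefSeq on build GRCr8. Capitals mark GC boxes, the letters GGGCGG on the printed strand or CCGCCC where the box lies on the other strand.
Nrp1 (chr19:73256307-73256556, plus strand): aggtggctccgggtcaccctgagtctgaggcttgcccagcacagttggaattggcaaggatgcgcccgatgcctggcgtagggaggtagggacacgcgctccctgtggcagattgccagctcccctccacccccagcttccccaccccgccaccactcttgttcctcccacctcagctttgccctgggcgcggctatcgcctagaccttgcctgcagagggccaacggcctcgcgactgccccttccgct
Plxnb2 (chr7:122137949-122138198, minus strand): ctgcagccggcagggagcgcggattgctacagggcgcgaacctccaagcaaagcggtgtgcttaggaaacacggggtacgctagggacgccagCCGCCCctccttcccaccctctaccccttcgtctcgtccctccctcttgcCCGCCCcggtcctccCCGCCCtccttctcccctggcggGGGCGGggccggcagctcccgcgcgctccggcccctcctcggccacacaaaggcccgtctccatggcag
Ephb4 (chr12:24988389-24988638, minus strand): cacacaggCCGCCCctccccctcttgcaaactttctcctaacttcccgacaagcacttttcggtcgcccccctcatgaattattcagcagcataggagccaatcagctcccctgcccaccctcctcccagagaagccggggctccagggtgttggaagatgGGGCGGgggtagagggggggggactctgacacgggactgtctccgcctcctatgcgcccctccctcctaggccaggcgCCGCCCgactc
Efnb1 (chrX:68297279-68297528, plus strand): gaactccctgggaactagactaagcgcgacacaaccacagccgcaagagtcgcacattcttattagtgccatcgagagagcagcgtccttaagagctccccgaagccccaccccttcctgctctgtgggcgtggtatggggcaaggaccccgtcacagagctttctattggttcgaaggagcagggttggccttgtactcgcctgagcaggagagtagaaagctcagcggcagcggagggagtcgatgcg
Unc5b (chr20:29307271-29307520, minus strand): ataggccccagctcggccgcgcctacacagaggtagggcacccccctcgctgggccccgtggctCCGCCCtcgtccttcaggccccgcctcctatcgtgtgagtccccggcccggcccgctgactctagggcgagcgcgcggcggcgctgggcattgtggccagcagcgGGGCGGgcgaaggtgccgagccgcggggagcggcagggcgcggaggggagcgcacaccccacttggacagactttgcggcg
Sequences were present for 44 of the 58 genes, and 6 motifs were sought on both strands of each. The GC box was found in 4 of 7 genes that rose, in 7 of 11 that fell and in 9 of 15 that did not pass, against 32.4% of 27457 promoters. GC content of the 5 sequences shown ran between 58.4% and 75.2%, where the median over all promoters was 52.0%. The AP-1 site TGANTCA was found in 0 of the 7 and 0 of the 11 (6.36% of all promoters), and the TEAD site GGAATG likewise in 0 and 0 (11.8%). The hypoxia response core ACGTG was found in 1 of the 7 and 1 of the 11 (16.9%), the antioxidant response element TGACNNNGC in 0 and 1 (10.2%), and the CArG box in 0 and 1 (1.5%). Such matches describe letters in these windows only.

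Signals are MAS5 intensities on a linear scale, set by the authors so that the trimmed mean was 100.0 on each array. Median signal was 17.3 to 18.9 on sheared arrays and 21.1 to 22.6 on static arrays, and correlations over probe sets were 0.980 to 0.993 among sheared, 0.987 to 0.991 among static and 0.882 to 0.906 across groups. The first principal component (85.8% of variance) separated the groups, and the second (6.28%) set sheared array 1 apart from sheared arrays 2 and 3. The 3′ to 5′ log2 ratio was 0.156 ± 0.0061 in sheared and 0.166 ± 0.0097 in static cells for GAPDH, and 0.392 ± 0.028 and 0.254 ± 0.036 for beta-actin (SD, n = 3 each). All 9 smooth muscle markers were above the filter on dim signal used below, and 6 of them fell, among them Acta2 (-1.10) and Myh11 (-1.04) on the log2 scale defined below. Their summed signal was 4102.5 to 4208.9 in sheared and 5643.9 to 6285.4 in static cells. Of 11 endothelial markers 7 were below the level tested, Pecam1, Kdr and Vwf among them. The 4 tested were Egfl7, which fell (-0.40), and Erg, Esam and Tek, which did not pass. The summed signal of endothelial markers was 167.1 to 185.9 in sheared and 206.8 to 226.6 in static cells. Of 8 neuronal markers 5 were below that level, Rbfox3 and Snap25 among them, with Tubb3 (1.01) risen, Elavl3 (-0.66) fallen and Syt1 (-0.14) not passed. The neuronal sum was 196.5 to 287.9 in sheared and 125.6 to 137.5 in static cells. Most of it was Tubb3, at 254.3, 166.4 and 169.3 in sheared and 91.1, 90.2 and 83.0 in static cells. Of 4 Schwann cell and glial markers only S100b was tested and it rose (1.43), Sox10 was below the level tested, and the sum was 81.2 to 111.3 in sheared and 31.0 to 39.1 in static cells. Of 8 fibroblast markers 7 were tested, of which 1 rose and 4 fell, with sums of 4305.0 to 7092.0 in sheared and 5307.0 to 7633.7 in static cells. Of 7 leukocyte markers 3 were tested, of which 1 rose and 1 fell, with sums of 128.2 to 170.0 in sheared and 182.2 to 234.4 in static cells, and Ptprc was below the level tested. The part of any such cells in the results that follow was not tested.

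Guidance genes moved in both directions under shear, with more falling than rising on the scaling as deposited. The receptors Nrp1, Plxnb2, Ephb3 and Ephb4 and the ligand Slit2 were among those that fell, and Sema6a, Plxna4, Efnb1 and Unc5b among those that rose. Each comparison is the difference, shear minus static, of log2(signal + 16), fitted in limma over all 21729 probe sets above a filter on dim signal, with Benjamini-Hochberg adjustment over all of them and a threshold of 0.05. Adding 16 shrinks the differences of dim probe sets. A total of 61 guidance probe sets of 43 genes passed the filter. Of these, 12 probe sets rose, 22 fell and 27 did not pass, so that 55.7% were called, against 52.8% of all probe sets tested. With the brightest probe set standing for each gene, 8 genes rose, 14 fell and 21 did not pass. That is 18.6% risen and 32.6% fallen, beside 27.8% and 30.1% of all 11248 genes tested, so the family's shares lay near the background for falls and under it for rises. At a difference of at least 1 on the log2 scale, 3 genes rose (6.98%, against 6.98% of all genes) and 6 fell (14.0%, against 9.63%). Sema6d among these rises had a static mean, and Epha4 among these falls a sheared mean, below the limit of the filter. Nothing is therefore read from these shares. The median difference was -0.19 over guidance probe sets and -0.07 over all probe sets tested. The balance of directions moved with the scaling between arrays: guidance probe sets stood at 12 risen and 22 fallen as deposited, 17 and 18 after quantile normalization, and 17 and 16 after median centring, with 46.1%, 52.4% and 59.1% of all called probe sets risen in these settings. The median of all probe sets was 0.02 after quantile normalization and 0.08 after median centring. RNA from whole cultures was measured, so fewer cells of a type and less RNA per cell cannot be told apart.

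**Figure D1:**
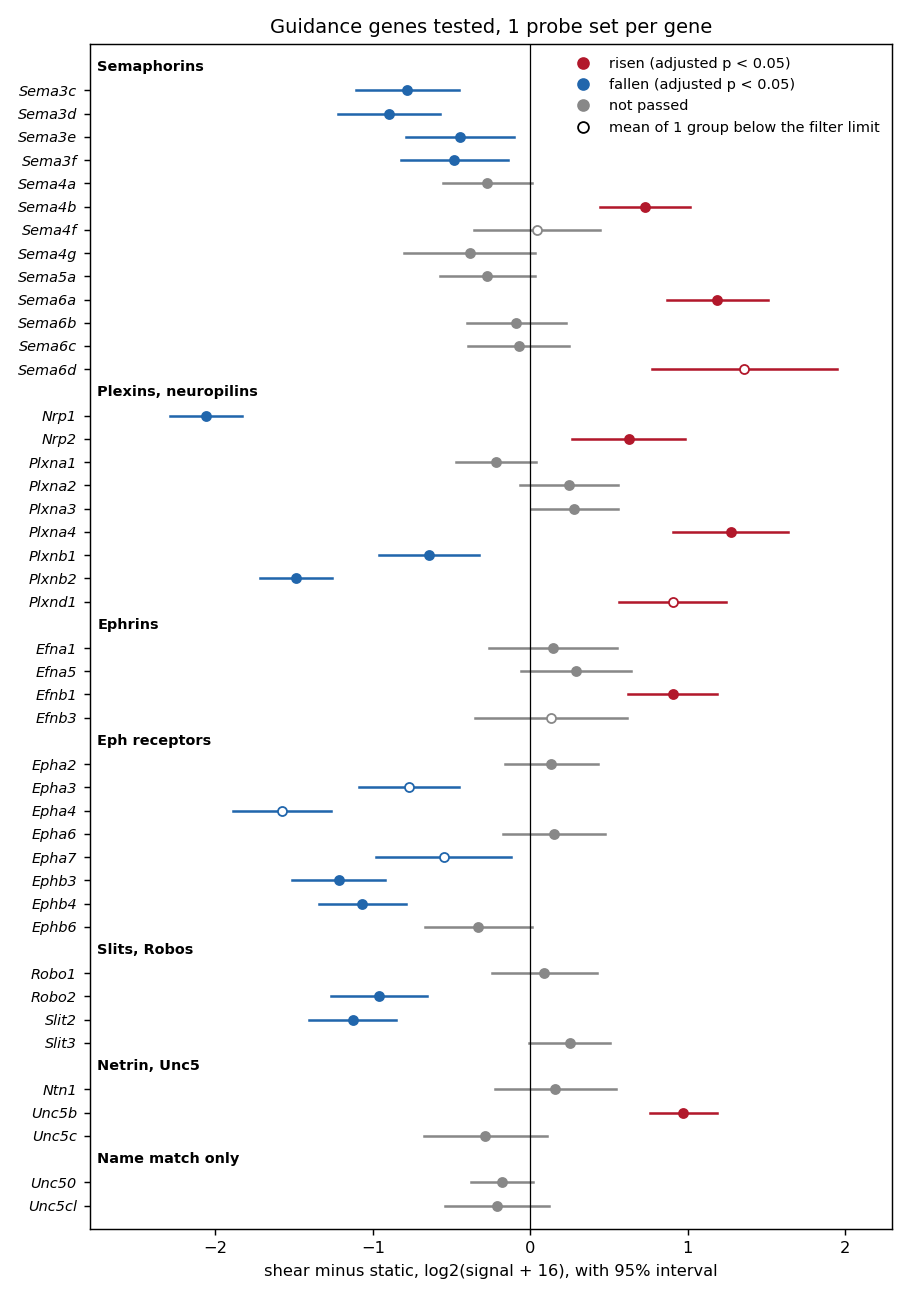
Difference between sheared and static cells on the log2(signal + 16) scale (x axis) for the 43 guidance genes tested (y axis, by family), 1 probe set per gene, with 95% intervals from the limma fit and 3 cultures per group. Nrp1 lies farthest left at -2.06 and Sema6d farthest right at 1.36, and open circles mark genes whose mean in 1 group lay below the filter limit.

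Among the secreted class 3 semaphorins, the ligands of the neuropilins, Sema3c, Sema3d, Sema3e and Sema3f fell, and Sema3a, Sema3b and Sema3g were too dim to test. Sema3c gave signals of 741.9, 587.4 and 559.0 in sheared cultures 1 to 3, against 921.6, 1187.3 and 1167.4 in static cultures 1 to 3. Every sheared array lay under every static array, and pair 1 was the closest. The difference was -0.78 (95% interval -1.11 to -0.45, limma adjusted p = 0.0023). Sema3d read 6.1, 11.5 and 8.6 in sheared cells and 31.4, 27.4 and 30.9 in static cells, a difference of -0.90 (adjusted p = 0.0011). Its groups stood well apart on every array. Sema3e read 237.6, 165.5 and 159.9 in sheared cells and 243.0, 293.5 and 240.1 in static cells. The groups were separate but nearly touched, since sheared culture 1 was almost level with its static partner. Its difference of -0.45 (adjusted p = 0.034) no longer passed without pair 2 (-0.29, adjusted p = 0.25), without pair 3 (-0.40), after median centring (-0.30), with no filter or without the intensity trend. Sema3f fell on both probe sets, by 0.48 on the brighter (adjusted p = 0.025) and by 0.91 on the dimmer (adjusted p = 0.00071). The brighter read 20.9, 32.4 and 34.0 in sheared cells and 49.9, 45.9 and 43.9 in static cells. It lost its call without pair 1 (-0.31, adjusted p = 0.061), after either rescaling and with no filter, while the dimmer kept its call in every setting run.

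Of the membrane-bound semaphorins tested, 3 genes rose and 6 did not pass. Over all genes tested 27.8% rose and 30.1% fell, and nothing is read from the contrast with class 3. Sema6a, a transmembrane ligand of A-type plexins, gave 26.6, 52.9 and 36.8 in sheared cells, against 6.2, 13.1 and 4.3 in static cells. The lowest sheared value was above the highest static one, and the difference was 1.19 (0.87 to 1.51, adjusted p = 0.00025). The other 4 probe sets of Sema6a were below the level tested. Sema6d, whose protein binds plexin A1 in the developing chick heart, gave 12, 47.0 and 56.4 in sheared cells, against 3.8, 3.2 and 3.9 in static cells. Static signal was close to the floor on every array and sheared culture 1 was far below the other sheared cultures. Its difference was 1.36 (0.77 to 1.95, adjusted p = 0.0027), and 1.79 without pair 1. Because of the low static signal its size followed the added constant, at 2.83 with 1 added and 0.57 with 64 added. Sema4b read 67.6, 77.2 and 82.4 in sheared cells and 42.1, 34.4 and 41.7 in static cells (0.73, adjusted p = 0.0017), with no overlap. Sema4a, Sema4f, Sema4g, Sema5a, Sema6b and Sema6c did not pass, at differences between -0.39 and 0.04.

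The neuropilins, the ligand-binding co-receptors for class 3 semaphorins and vascular endothelial growth factor, moved in opposite directions. Nrp1 gave 83.3, 133.7 and 134.0 in sheared cells, against 429.9, 606.6 and 569.2 in static cells. Even the highest sheared array stayed far below the lowest static one. The difference was -2.06 (-2.29 to -1.83, adjusted p = 4.7e-06), and the call held in every setting run. A second Nrp1 probe set read 61.0, 92.2 and 75.5 in sheared cells and 329.6, 419.3 and 438.9 in static cells, a difference of -2.16 (adjusted p = 5.5e-06). Both Nrp1 probe sets were therefore low in all sheared cultures. Nrp2 gave 402.8, 219.2 and 203.4 in sheared cells, against 180.3, 158.7 and 155.8 in static cells. The groups did not overlap, but sheared culture 1 was far above the other sheared cultures. Its difference of 0.63 (0.27 to 0.98, adjusted p = 0.010) became 0.39 (adjusted p = 0.0012) without pair 1. The dimmer Nrp2 probe set did not pass (-0.19, adjusted p = 0.25), and averaging the probe sets of each gene gave 0.22 for Nrp2 (adjusted p = 0.13).

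**Figure D2:**
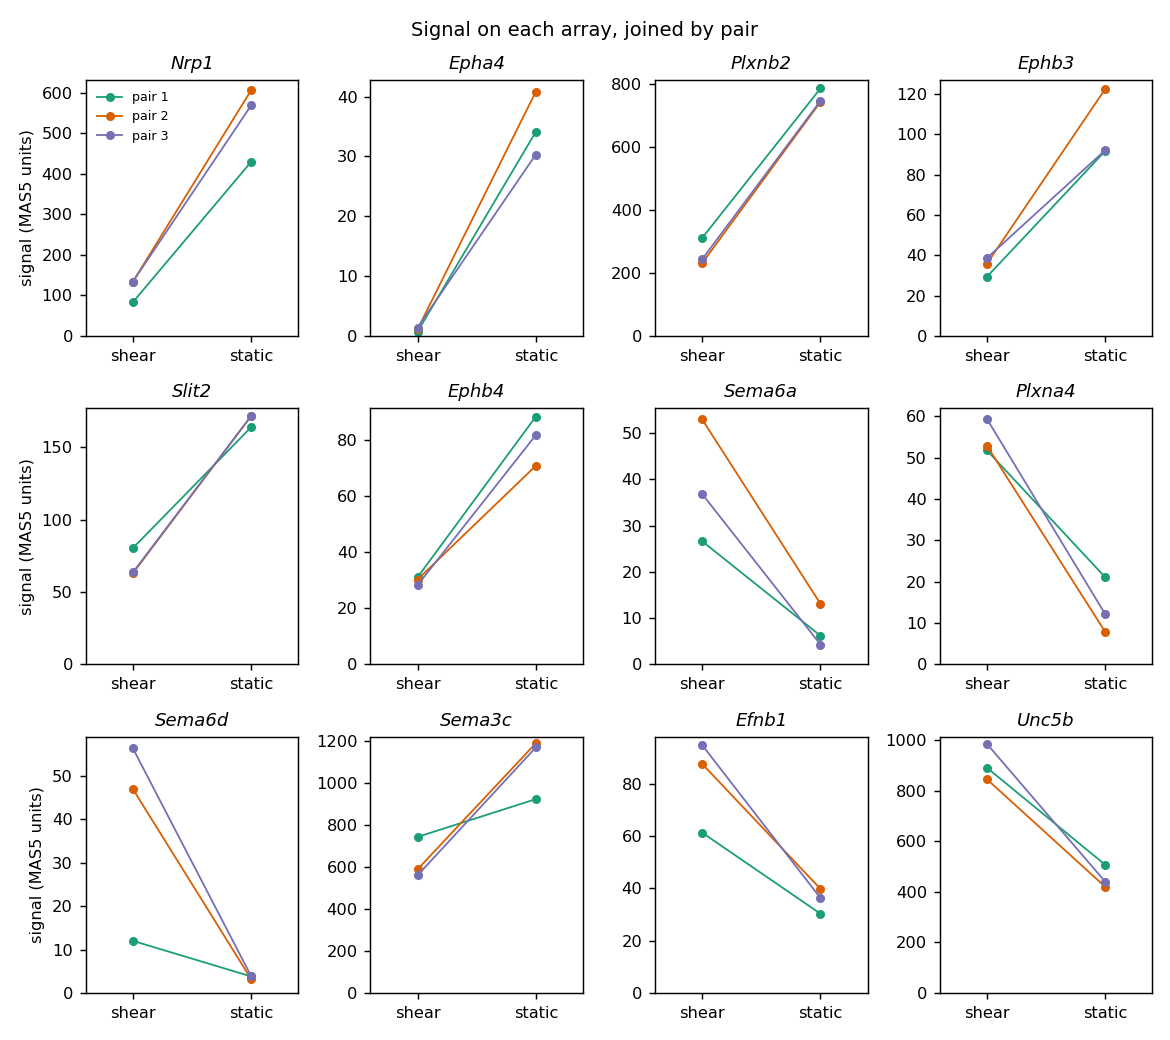
MAS5 signal (y axis, linear from 0, its own scale in each panel) in sheared and static cultures, joined by pair. Shown are the 9 guidance genes past the threshold with a log2 difference of at least 1 in size and the same sign in all 3 pairs. Sema3c, Efnb1 and Unc5b were added after their values were seen. The lines of the 3 pairs slope the same way in all 12 panels, which follows from this choice of genes. The groups do not overlap in any panel.

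Of the plexins, the transmembrane receptors that signal for semaphorins, Plxnb1 and Plxnb2 fell, Plxna4 and Plxnd1 rose, and Plxna1, Plxna2 and Plxna3 did not pass on their brightest probe sets. Plxnb2, a receptor for class 4 semaphorins, gave 311.7, 231.8 and 244.1 in sheared cells, against 787.1, 744.3 and 747.7 in static cells. Static arrays were tightly grouped and all lay far above the sheared ones. The difference was -1.49 (-1.72 to -1.26, adjusted p = 1.6e-05). The gene table lists a pseudogene, Plxnb2-ps1, and how far its RNA binds this probe set was not tested. Plxna4, which pairs with neuropilins and also binds class 6 semaphorins, gave 51.8, 52.9 and 59.4 in sheared cells, against 21.1, 7.9 and 12.2 in static cells. Sheared arrays were alike and static arrays scattered below them, and the difference was 1.27 (0.91 to 1.64, adjusted p = 0.00033). A second Plxna4 probe set rose by less (0.56, adjusted p = 0.011). Plxnd1, the receptor for Sema3e, read 18.7, 24.2 and 33.8 in sheared cells and 5.5, 1.6 and 12 in static cells (0.90, adjusted p = 0.0013). Its static mean lay below the filter limit. Plxnb1 read 11.6, 9.8 and 10.3 in sheared cells and 21.5, 24.6 and 31.0 in static cells (-0.64, adjusted p = 0.0050), without overlap. Plxna1 differed by -0.22 (adjusted p = 0.13), Plxna2 by 0.25 (adjusted p = 0.16) and Plxna3 by 0.28 (adjusted p = 0.084).

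Of the ephrins, membrane-tethered ligands of Eph receptors, Efnb1 rose and the other 3 tested did not pass. Efnb1, a transmembrane ligand of EphB receptors, gave 61.3, 87.6 and 94.8 in sheared cells, against 30.3, 39.8 and 36.3 in static cells. Its groups were apart, with sheared culture 1 the lowest of its group, and the difference was 0.91 (0.62 to 1.19, adjusted p = 0.00052). The second probe set read 27.1, 44.6 and 47.5 in sheared cells and 11.9, 11.3 and 10.7 in static cells (1.01, adjusted p = 0.0010). Efna1, Efna5 and Efnb3 differed by 0.14, 0.29 and 0.13.

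Eph receptors, receptor tyrosine kinases, fell in 5 of 8 genes tested, and the other 3 did not pass. That is 62.5%, beside 30.1% of all genes fallen, but 3 of the 5 (Epha3, Epha4 and Epha7) had a sheared mean below the filter limit and passed the filter through their static level, so nothing is read from that share. The other falls were Ephb3 and Ephb4. Ephb4, the receptor known for marking veins and for binding ephrin-B2, gave 31.0, 30.2 and 28.2 in sheared cells, against 88.2, 70.7 and 81.6 in static cells. Sheared arrays were nearly equal and all far below the static ones. The difference was -1.07 (-1.34 to -0.79, adjusted p = 0.00020). Ephb3 gave 29.3, 35.8 and 38.6 in sheared cells, against 91.7, 122.4 and 92.1 in static cells, and also showed no overlap. Its difference was -1.22 (-1.51 to -0.92, adjusted p = 0.00015). Epha4, which binds ephrins of both classes, gave 0.7, 1.1 and 1.4 in sheared cells, against 34.1, 40.8 and 30.3 in static cells. It was at the floor in every sheared culture and moderate in every static one. The difference was -1.58 (-1.89 to -1.26, adjusted p = 5.2e-05). With 1 added in place of 16 it was -4.13, and with 64 added -0.61. A second Epha4 probe set also fell (-0.83, adjusted p = 0.0042), and its other 2 probe sets were not tested. Epha3 read 1.4, 5.3 and 5.2 in sheared cells and 10.3, 22.7 and 22.5 in static cells (-0.77, adjusted p = 0.0021), with sheared signal at the floor. Epha7 read 2.1, 1.8 and 6.7 in sheared cells and 14.9, 15.8 and 7.4 in static cells. Pair 3 hardly differed, and the difference of -0.55 (adjusted p = 0.037) did not pass without pair 1 (-0.44), without pair 2 (-0.41), after either rescaling or with no filter. Epha2, the main receptor for ephrin-A1, read 99.6, 94.8 and 106.7 in sheared cells and 111.3, 73.8 and 88.0 in static cells. These groups overlapped and the difference of 0.13 (-0.16 to 0.43, adjusted p = 0.41) did not pass. Epha6 (0.15) and Ephb6 (-0.33, adjusted p = 0.096) did not pass either. Efnb2 and Ephb2 were not analysed here.

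Slit2, a secreted ligand of Robo receptors, fell, and Slit3 did not pass. Slit2 gave 80.3, 62.9 and 63.5 in sheared cells, against 163.8, 171.5 and 171.5 in static cells. The groups were far apart, and the difference was -1.13 (-1.41 to -0.85, adjusted p = 0.00016). A second Slit2 probe set read 20.6, 14.6 and 13.5 in sheared cells and 129.3, 131.2 and 124.6 in static cells, a larger difference of -2.17 (adjusted p = 7.8e-06). Slit3 gave 191.4, 377.2 and 506.0 in sheared cells, against 156.9, 368.9 and 364.5 in static cells. Both cultures of pair 1 were low, so the groups overlapped although each sheared culture was above its partner. Its difference of 0.25 (-0.01 to 0.51, adjusted p = 0.093) passed as a rise after median centring (0.40) and without pair 1 (0.24). Of the receptors, Robo2 read 13.1, 12.3 and 9.1 in sheared cells and 48.1, 33.2 and 32.4 in static cells (-0.96, adjusted p = 0.00053), with no overlap, and its second probe set fell by 0.39 (adjusted p = 0.028), a call lost without pair 2 or pair 3, with no filter and after either rescaling. Robo1 read 26.7, 15.8 and 21.3 in sheared cells and 18.6, 20.6 and 17.2 in static cells, with overlap, and did not pass (0.09, adjusted p = 0.63). Robo4 was not analysed here.

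Unc5b, a netrin receptor also found on vascular cells, rose on both of its probe sets. The brighter gave 892.0, 846.4 and 986.5 in sheared cells, against 507.7, 420.4 and 440.7 in static cells. No sheared array came near the static range, and the difference was 0.97 (0.76 to 1.18, adjusted p = 8.8e-05). The dimmer read 359.7, 291.8 and 403.0 in sheared cells and 192.0, 162.7 and 155.1 in static cells (0.98, adjusted p = 0.00039). Unc5c did not pass on its brighter probe set (-0.29, adjusted p = 0.19). Its ligand Ntn1 read 34.7, 53.0 and 65.5 in sheared cells and 42.9, 48.8 and 37.7 in static cells. The groups overlapped and pair 1 ran opposite to the others, with a difference of 0.16 (-0.23 to 0.54, adjusted p = 0.45). Ntn4 was not analysed here. Unc50 (-0.18) and Unc5cl (-0.21) did not pass.

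Separate probe sets of 1 gene give a check within these arrays, since they can read different stretches of an RNA in the same cultures. Of 17 genes with more than 1 tested probe set, 12 had the same call on each and 5 did not. Among the 12, Efna1, Ntn1 and Sema5a passed on no tested probe set. Those of Epha3 and Epha4 passed the filter through their static level, so their agreement was partly set by the filter. No share over all genes is given for comparison. Plxna3 was the most discordant: the brighter probe set did not pass (0.28), while the other read 11.5, 12.1 and 16.7 in sheared cells and 42.3, 35.7 and 33.1 in static cells and fell (-0.85, adjusted p = 0.0014). One of 3 Plxna2 probe sets passed as a rise (0.39, adjusted p = 0.038), a second Plxnb1 probe set did not pass (-0.05), and a second Unc5c probe set just passed as a fall (-0.37, adjusted p = 0.0499). Without the replicate block these Plxna2 and Unc5c calls were lost (adjusted p = 0.063 and 0.071), and they were lost too without any 1 of the 3 pairs. Nrp2 was the remaining one. No direction is given here for Plxna3, and those of Nrp2 and Plxnb1 rest on the brighter probe set.

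**Figure D3:**
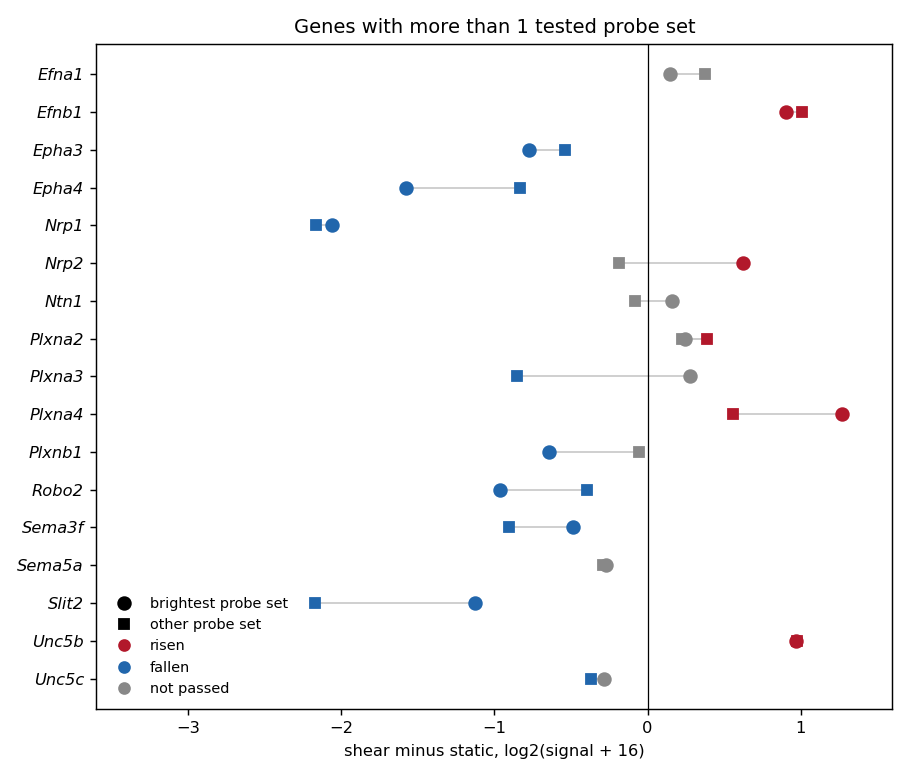
Difference between sheared and static cells on the log2(signal + 16) scale (x axis) for each tested probe set of the 17 guidance genes with more than 1 (y axis). Circles are the brightest probe set of a gene and squares the others, and the points of Nrp1, Efnb1 and Unc5b nearly coincide while those of Plxna3 and Nrp2 lie on both sides of 0.

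Within pairs, all 34 called probe sets moved 1 way in each of the 3 pairs. In 32 of them the groups did not overlap, Plxna2 and Unc5c being the exceptions. The paired fit favours calls of this kind, and the share over all called probe sets is not given here. Nothing is therefore read from these counts. Over all 61 tested, groups were separate in 36 (59.0%), beside 60.0% of all probe sets. Pair 1 had the smallest difference in 13 of the 22 called genes (59.1%), where 55.8% of all called genes had theirs. The median size of the difference was 0.85, 0.95 and 1.01 in pairs 1, 2 and 3 for guidance genes, beside 0.64, 0.76 and 0.76 for all called genes. Sema6d (0.50, 1.71 and 1.86) and Sema3c (-0.31, -1.0 and -1.04) had weak first pairs, and Nrp2 (1.09, 0.43 and 0.35) a strong one.

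**Figure D4:**
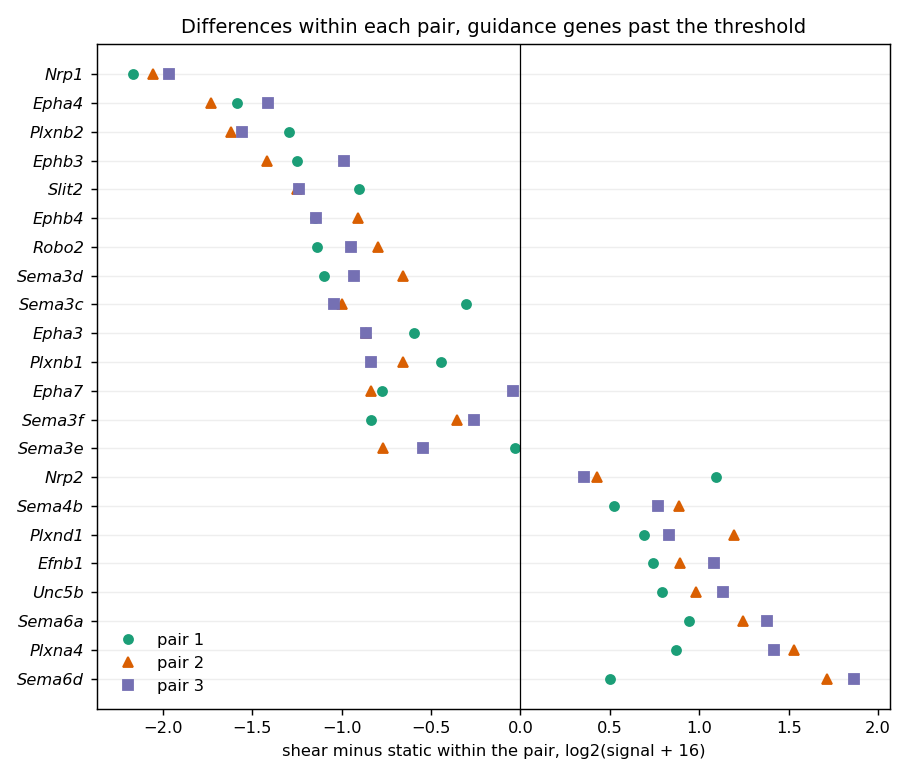
Difference within each pair on the log2(signal + 16) scale (x axis) for the 22 guidance genes that passed (y axis, ordered by their fitted difference), with 1 marker per pair. All markers of a gene lie on 1 side of 0, a pattern that a call from the paired fit favours. The closest are Sema3e in pair 1 (-0.03) and Epha7 in pair 3 (-0.04).

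Partners that act with these ligands and receptors were read from 4 further lists of 115 entries, of which 106 were on the array and 96 were tested. Over all 4 lists they split evenly on the scaling as deposited, with 30 risen, 30 fallen and 36 not passed. That is 62.5% called, beside 57.9% of all genes, and the median difference was -0.03. The split was 33 risen and 31 fallen after quantile normalization, and 38 and 26 after median centring. Of all genes tested, 27.8% rose and 30.1% fell, which is the background for the counts of each list. Among co-receptors and other binding partners, 6 of 20 rose and 8 fell. Flrt2, a membrane ligand of Unc5 receptors, fell by 2.00 (adjusted p = 8.2e-06), and Rgma, a ligand of neogenin, fell by 1.35. Sdc1, a heparan sulfate proteoglycan, rose by 1.38, and Vegfa, the growth factor that binds neuropilins, by 0.90. Neo1, which encodes neogenin, fell by 0.41, and Dcc was too dim to test. Among adaptors, kinases and cytoskeletal effectors, 12 of 37 rose and 12 fell. Dpysl2, a microtubule-binding mediator of semaphorin signals, fell by 2.03 (adjusted p = 1.9e-06), Mical1, an actin-oxidising enzyme that binds plexins, fell by 1.75, and Epb41l2, a membrane skeleton protein, fell by 1.51, whereas the polarity scaffold Pard3 rose by 1.39. Among proteases that process guidance proteins, 3 of 6 rose and 1 fell: Furin, which cleaves class 3 semaphorins, rose by 0.97, Mmp2 by 0.60 and Adam17 by 0.41, and Mmp14 fell by 0.48.

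**Figure D5:**
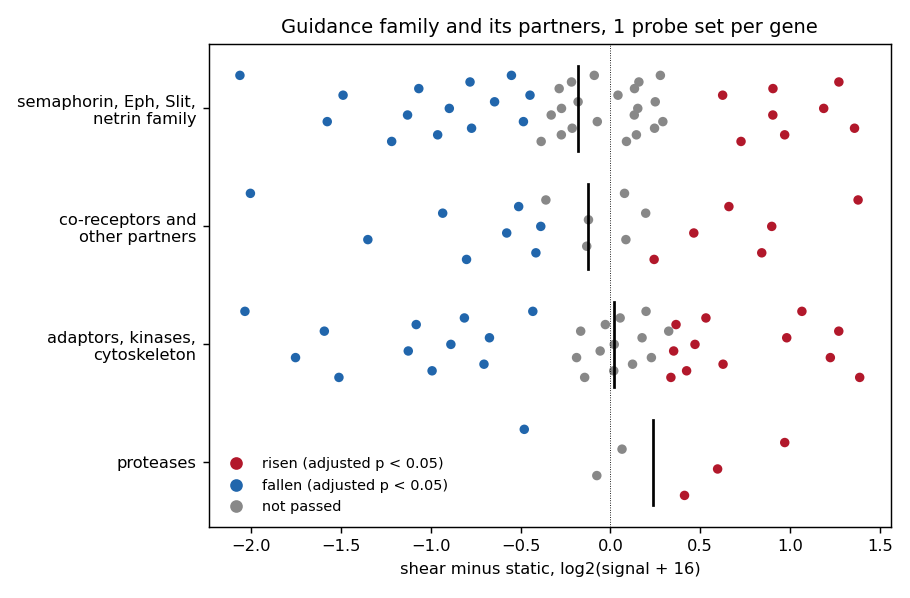
Difference between sheared and static cells on the log2(signal + 16) scale (x axis) for single genes of the guidance family (43 genes) and of 3 partner lists (20, 37 and 6 genes). Each point is 1 gene, points are spread vertically only to separate them, and black bars mark medians, which lie between -0.18 (guidance family) and 0.24 (proteases).

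The remaining 15 genes had no probe set above the filter: Efna4, Epha5, Epha8, Epha10, Ephb1, Ntn5, Ntng1, Plxnc1, Robo3, Sema3a, Sema3b, Sema3g, Sema4d, Slit1 and Unc5a. Together with the dim probe sets of other genes, 36 probe sets were not tested, with signals between 0.1 and 14.8 over both groups. Of the 61 tested, 16 were below the median of all probe sets in both groups. A probe set that passes the filter by its level in 1 group only is favoured to differ by the filter. Among called probe sets this concerns 2 rises (Plxnd1 and Sema6d) and 5 falls (both tested probe sets of Epha3 and of Epha4, and Epha7). Efnb3 (0.13) and Sema4f (0.04) also had a static mean below the limit and did not pass.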

How the data were processed

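RNA of 3 sheared and 3 static cultures was measured on Affymetrix rat arrays. Per the submitters' processing notes, the authors made the deposited intensity values with MAS5 (no version is given in the sources used here). Intensity was linear, 1 value per probe set, with a mean of 100.0 on each array after leaving out the highest and lowest 2%. No detection calls were used.

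Groups and pairs came from the labels. Members were found by symbol in the platform annotation, from probe sets with 1 symbol, and all 97 matched the GRCr8 gene table by identifier with 0 symbols changed. The members and lists were chosen with earlier results of these data known. Arrays hold 3 to 10 exact zeros, so 16 was added before log2. The dimmest 30% by mean over all arrays were not tested (limit 4.50, signal 6.69), which left 21729 probe sets. The difference was fitted by lmFit and tested, on both sides, by eBayes with a trend on intensity, in limma 3.58.1 under R 4.3.3, and pair entered the model as a fixed term. The brightest probe set stood for a gene.

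The series design calls the experiment paired, although deviations from the group means correlated by only 0.071, 0.065 and 0.063 within pairs 1, 2 and 3. Genes past the threshold with a log2 difference of at least 1 and the same sign in all 3 pairs are given in full (Nrp1, Epha4, Plxnb2, Ephb3, Slit2, Ephb4, Sema6a, Plxna4 and Sema6d), with their partners. Other members given per array were chosen after their values were seen, and of each partner list up to 4 genes were taken by smallest p, plus Neo1 and Dcc. One partner list enters the totals but is not reported here on its own. Alternatives changed the block, scaling, filter, constant added, variance model, the pairs used or the reading of several probe sets. Plots used matplotlib 3.10.9 and Python 3.11.15. The number of arrays limits the precision.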

Additional observations from a re-analysis of the deposited data

Results flagged for a closer look

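The 36 guidance probe sets below the filter were left out of the main comparison and entered only alternative fits. Of these, 2 plexin probe sets read higher on every sheared array than on every static one, and 5 probe sets read lower. They were picked out after their values were seen, so no test is given. The share over all probe sets below the filter is not given here either, so nothing is read from these counts. A Plxna1 probe set read 5.3, 14.0 and 9.8 in sheared cells and 2.8, 0.8 and 1.9 in static cells, with a mean of 9.70 in sheared cells. Plxnc1, the receptor for Sema7a, read 8.8, 13.5 and 7.9 in sheared cells and 5.0, 1.6 and 4.2 in static cells, with a mean of 10.07 in sheared cells. The 5 lower in sheared cells were probe sets of Epha3, Epha4, Sema3g, Sema4d and Sema6a. That of Epha4 read 1.0, 4.6 and 1.7 in sheared cells and 12.7, 8.3 and 14.8 in static cells, and that of Sema6a, whose tested probe set rose, read 3.4, 6.9 and 5.1 in sheared cells and 7.3, 9.6 and 8.3 in static cells. No detection calls were used, so whether signals this low stood above background was not tested.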

How the results depend on the processing

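Without the replicate block, 8 guidance genes rose and 14 fell, as with it, and 11 probe sets rose and 21 fell, against 12 and 22 with it. Leaving out 50% of probe sets left 5 risen and 9 fallen genes, and 8 risen and 14 fallen probe sets, with 36 probe sets of 27 genes tested and no call lost among them. Leaving out each pair in turn gave 8 to 12 risen and 13 to 17 fallen genes, 11 to 16 risen and 18 to 25 fallen probe sets, and 23 to 32 risen and 24 to 33 fallen partner genes. The upper ends came without pair 1, where 11 probe sets gained and 4 lost a call. Fits without a pair rest on 2 pairs and 1 residual degree of freedom. Of the 34 called probe sets, 27 kept their call in every setting that tested them and 7 lost it in some, and none changed sign in any setting. Genes given in full by the rule kept their call wherever tested. Epha4, Sema6a and Sema6d had no value under the 50% filter. Partner genes stood at 30 risen and 30 fallen, 38 and 26 after median centring.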
